A study of Mus musculus with 16 samples.

Results

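The genes described here are 10 genes of the osteochondrogenic program, out of 54532 genes in the deposited tables. They were chosen by name. They comprise the transcription factors Runx2, Sox9, Sp7, Msx1, Msx2 and Dlx5, and the matrix genes Acan, Comp, Hapln1 and Ibsp. Each name matched 1 gene, and all 10 genes had the same coordinates in GENCODE vM21 (GRCm38, the same coordinates as mm10). RNA was sequenced from the aortas of 16 male C57BL/6J mice, 4 per group and 1 library per mouse. The mice were 12 weeks old at the first operation, and a recovery of 2 weeks came before the diets. The Sham mice kept their kidneys and received the HPi-Lp diet, with 2% phosphorus and 2.5% protein. The other mice underwent 5/6 Nx, a surgical model of CKD in which part of one kidney is ligated and the other kidney is removed. The 5/6 Nx-HPi-Lp mice ate the diet of the Sham mice, the 5/6 Nx-HPi-Hp mice ate 2% phosphorus with 18% protein, and the 5/6 Nx-LPi-Lp mice ate 0.3% phosphorus with 2.5% protein. The methods of the study give 4 weeks on the diets and the labels give 30 days. The study was designed around calcification of the arterial media in CKD and its dependence on dietary phosphorus and protein.

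Bone and cartilage cells are set up by a small number of transcription factors. Sox9 drives cartilage formation, Runx2 drives osteoblast formation and the enlargement of chondrocytes, and Sp7 (osterix) acts after Runx2 in committed osteoblasts. Msx1, Msx2 and Dlx5 are homeodomain proteins of the developing skeleton, and cells of calcifying arteries are known to switch on parts of the same program. Aggrecan (Acan) and the link protein Hapln1 form the hyaluronan-bound gel of cartilage, COMP binds collagen fibrils in cartilage and tendon, and bone sialoprotein (Ibsp) is a phosphoprotein of mineralizing bone matrix.

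Levels are given as CPM (counts scaled to the size of the library) after TMM scaling, which corrects library totals for differences in composition, and, for comparisons between genes, as the deposited FPKM, which are also divided by gene length. Library totals ran from 13659525 to 57276915 counts. A count of 0 allows a level of up to 3 counts, which was 0.0549 to 0.252 CPM in these libraries. Such limits cover counting error only. A gene was called higher or lower in edgeR's quasi-likelihood test at a Benjamini-Hochberg adjusted p of at most 0.05 and a log2 fold change of at least 1 in size. Mitochondrially encoded genes took a share of the counts of 4.18% to 6.34% in Sham aortas, 19.3% to 27.1% in 5/6 Nx-HPi-Lp aortas, 9.50% to 29.0% in 5/6 Nx-HPi-Hp aortas and 14.2% to 21.1% in 5/6 Nx-LPi-Lp aortas. All 8 smooth muscle markers were detected in every library. In whole tissue, fewer cells of a type and less RNA per cell cannot be told apart.

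In the aortas of the Sham mice, Comp was the most abundant of the 10 genes per length, at 15.3 ± 2.03 FPKM (SD, n = 4), followed by Msx1 at 5.52 ± 0.771, Acan at 4.48 ± 0.943, Dlx5 at 2.12 ± 0.787 and Hapln1 at 1.22 ± 0.679 FPKM. The other 5 genes had a mean under 1 FPKM, and Runx2 was the lowest at 0.211 ± 0.0531 FPKM. The number of genes above 1 FPKM was 5 in the Sham, 5 in the 5/6 Nx-HPi-Lp, 5 in the 5/6 Nx-HPi-Hp and 4 in 5/6 Nx-LPi-Lp aortas. Hapln1 was among them in Sham aortas alone, and Sox9 in the 5/6 Nx-HPi-Lp (2.00 ± 0.966 FPKM) and 5/6 Nx-HPi-Hp mice (1.05 ± 0.265 FPKM).

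When 5/6 Nx-HPi-Lp aortas were compared with Sham aortas on the same diet, Runx2, Sox9 and Comp were higher and Hapln1 was lower. The other 6 genes, Sp7, Msx1, Msx2, Dlx5, Acan and Ibsp, were not called. Of all 16513 genes tested in this comparison, 15.0% were called higher and 7.18% lower. The median log2 fold change of the 10 genes was -0.16, against -0.0027 over all genes tested. The comparisons of 5/6 Nx-HPi-Lp aortas with each of the other groups use the same 4 libraries and are not independent of each other.

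**Figure D1:**
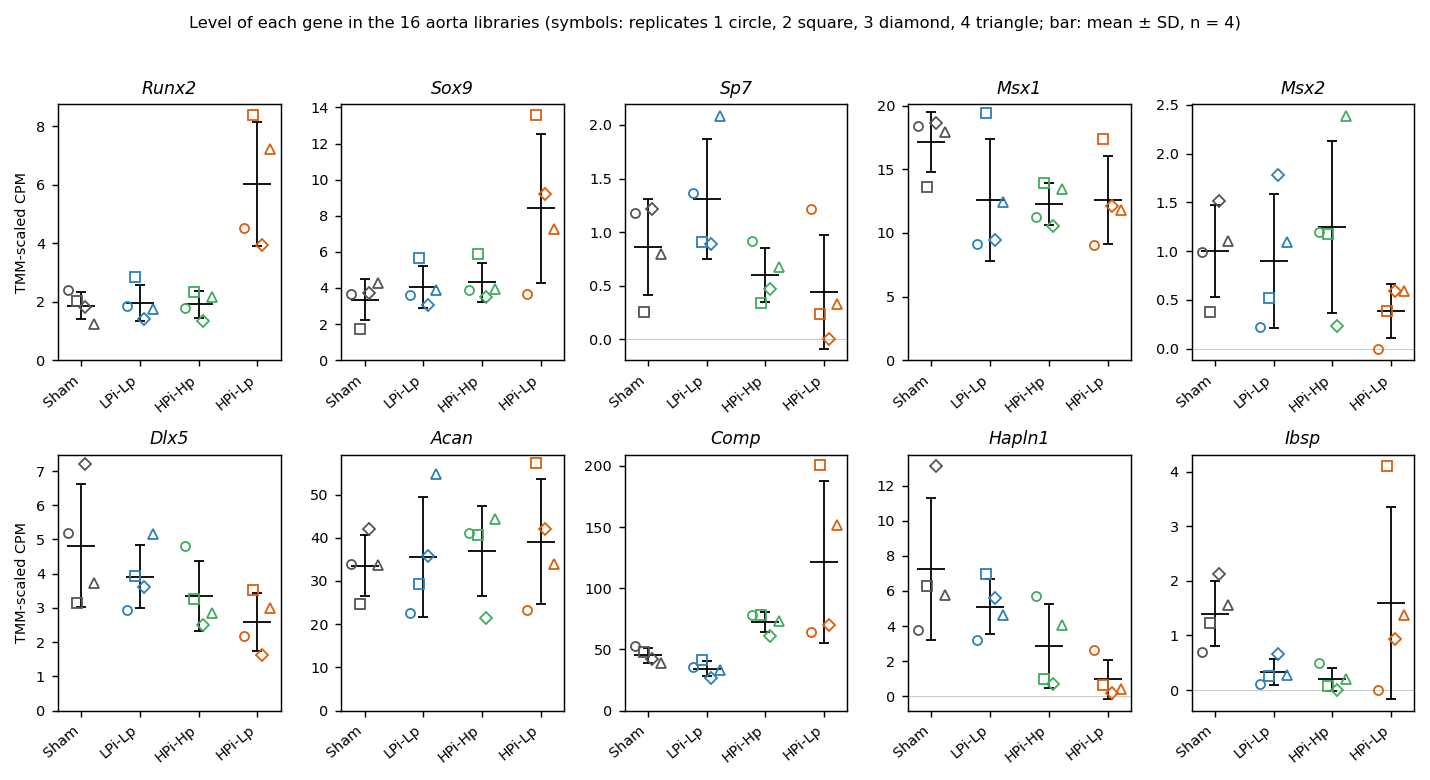
Level of each of the 10 genes in TMM-scaled CPM (linear vertical axes that differ between panels) in the 16 libraries. Each symbol is 1 mouse, with its shape giving the replicate number, and the bars give the mean ± SD of 4 mice. Runx2 lies between 3.96 and 8.40 CPM in 5/6 Nx-HPi-Lp aortas and between 1.26 and 2.84 CPM in all others, whereas the groups overlap for Acan.

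Runx2 (ENSMUSG00000039153, chr17:44495987-44814797, minus strand), the master factor of osteoblasts, was higher in 5/6 Nx-HPi-Lp aortas than in each of the other groups. It was measured at 4.54, 8.40, 3.96 and 7.24 CPM in the 4 aortas of 5/6 Nx-HPi-Lp and at 2.39, 2.02, 1.82 and 1.26 CPM in Sham aortas. The 5/6 Nx-HPi-Hp aortas had 1.79, 2.35, 1.33 and 2.18 CPM, and 5/6 Nx-LPi-Lp aortas 1.85, 2.84, 1.41 and 1.75 CPM. Every 5/6 Nx-HPi-Lp mouse exceeded every other mouse, and the other 3 groups overlapped. The log2 fold change was 1.64 ± 0.329 (SE) against Sham aortas (adjusted p = 0.00313), 1.63 ± 0.374 against 5/6 Nx-HPi-Hp aortas (adjusted p = 0.0229) and 1.61 ± 0.360 against 5/6 Nx-LPi-Lp aortas (adjusted p = 0.0158), by edgeR's quasi-likelihood test. The higher level was still only 0.675 ± 0.234 FPKM. Behind the 4 libraries stood 71 to 459 counts in 5/6 Nx-HPi-Lp aortas and 17 to 65 in the other 12. The antisense gene Runx2os1 shares exon bases with Runx2, and the strand setting of the counting was not given in the sources used here. It had at most 7 counts in a library.

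The difference in Runx2 from 5/6 Nx-HPi-Hp aortas depended on single libraries. It was not called without replicate 2 or 4 of 5/6 Nx-HPi-Lp aortas or without replicate 1 or 3 of 5/6 Nx-HPi-Hp aortas, where the adjusted p reached 0.0773. Against the Sham and 5/6 Nx-LPi-Lp aortas it was called whichever library was left out.

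The starts of 3 genes that were called in a comparison are shown to place the letters of a RUNX site, since Runx2 binds that site and Hapln1 and Ibsp are skeletal matrix genes. Each sequence is the 250 bases before the RefSeq start on the gene's strand (GRCm38.p6), 5′ to 3′, with capitals for TGTGGT or its reverse complement. Runx2 lies at chr17:44814628-44814877 (minus strand), Hapln1 at chr13:89540386-89540635 (plus strand) and Ibsp at chr5:104299037-104299286 (plus strand). The GENCODE genes begin at 44814797, 89539796 and 104299171 in the same order, so the RefSeq starts of these 3 genes lie within them. The Hapln1 sequence lies wholly, and the Runx2 and Ibsp sequences partly, within the GENCODE gene.
Runx2: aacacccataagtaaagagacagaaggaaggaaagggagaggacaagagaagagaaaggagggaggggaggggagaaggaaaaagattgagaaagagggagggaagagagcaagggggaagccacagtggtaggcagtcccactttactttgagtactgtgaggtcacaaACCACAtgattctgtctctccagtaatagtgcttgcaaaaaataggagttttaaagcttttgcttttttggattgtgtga
Hapln1: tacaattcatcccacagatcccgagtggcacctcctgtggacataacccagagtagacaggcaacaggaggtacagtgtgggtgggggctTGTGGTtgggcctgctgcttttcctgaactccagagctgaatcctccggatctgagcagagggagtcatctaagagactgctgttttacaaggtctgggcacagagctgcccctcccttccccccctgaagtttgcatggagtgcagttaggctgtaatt
Ibsp: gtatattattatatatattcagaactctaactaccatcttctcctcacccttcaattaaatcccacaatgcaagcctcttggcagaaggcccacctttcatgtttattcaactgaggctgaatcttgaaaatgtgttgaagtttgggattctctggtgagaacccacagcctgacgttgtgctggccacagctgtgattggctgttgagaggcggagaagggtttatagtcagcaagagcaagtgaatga
Of the 10 genes, 6 had a sequence in the RefSeq table. Those not in it were Sox9, Sp7, Dlx5 and Comp. The Runx2 sequence held 1 match, which begins 80 bases before the RefSeq start, Hapln1 held 1 match that begins 160 bases before it, and Msx1, Msx2, Acan and Ibsp held none. Both matches lie past the GENCODE start, within the gene. Of all 32851 promoter sequences of this length, 14.0% held a match on either strand. The homeodomain letters TAATTA, which read the same on both strands, were found in Msx2 alone among the 6 and in 4.84% of all promoters. The Msx2 match also lies within its GENCODE gene. A match of letters is not evidence of binding.

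Sox9 (ENSMUSG00000000567, chr11:112782224-112787760, plus strand), the cartilage factor, was 3.64, 13.6, 9.21 and 7.24 CPM in 5/6 Nx-HPi-Lp aortas and 3.68, 1.73, 3.73 and 4.30 CPM in Sham aortas. In 3 of the 4 5/6 Nx-HPi-Lp mice it exceeded every Sham mouse, whereas replicate 1 lay within the range of the Sham mice. The difference was called (log2 fold change 1.28 ± 0.402, adjusted p = 0.0273, edgeR), but this call was lost in 5 of the 8 fits that each left out 1 library, those without Sham replicates 1, 2 or 3 or 5/6 Nx-HPi-Lp replicates 2 or 3 (adjusted p up to 0.0746). The 5/6 Nx-HPi-Hp aortas had 3.90, 5.87, 3.51 and 3.94 CPM and 5/6 Nx-LPi-Lp aortas 3.60, 5.68, 3.03 and 3.88 CPM. Against them the log2 fold change of 5/6 Nx-HPi-Lp aortas was 0.94 (95% interval 0.080 to 1.80, adjusted p = 0.132) and 1.05 (0.18 to 1.92, adjusted p = 0.0851), which did not pass. Without 5/6 Nx-HPi-Lp replicate 1 both passed, with adjusted p = 0.0383 and 0.0199, and the difference from 5/6 Nx-LPi-Lp aortas also passed with DESeq2 (1.05, adjusted p = 0.044) and with all 16 libraries in 1 fit (1.06, adjusted p = 0.0436).

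Sp7 (ENSMUSG00000060284, chr15:102356606-102367182, minus strand), the factor of committed osteoblasts, had few counts, from 0 to 44 per library. It was 1.21, 0.238, 0 and 0.326 CPM in 5/6 Nx-HPi-Lp aortas, with 0 counts in replicate 3, which allows up to 0.0679 CPM. The Sham mice had 1.18, 0.253, 1.21 and 0.799 CPM. These groups overlapped, and the log2 fold change was -1.10 with a 95% interval from -3.39 to 1.20 (adjusted p = 0.42, edgeR). The highest group mean was that of 5/6 Nx-LPi-Lp aortas (1.31 ± 0.561 CPM) and the lowest that of 5/6 Nx-HPi-Lp aortas (0.444 ± 0.531 CPM).

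None of the homeodomain genes was called in 5/6 Nx-HPi-Lp aortas against another group. Msx1 (ENSMUSG00000048450, chr5:37820485-37824583, minus strand) was 9.07, 17.4, 12.1 and 11.8 CPM in these mice and 18.4, 13.6, 18.6 and 17.9 CPM in Sham aortas. The groups overlapped through 1 library of each. Its log2 fold change was -0.49 ± 0.195 (adjusted p = 0.0693), and in 5/6 Nx-HPi-Hp aortas against Sham aortas it was -0.48 (adjusted p = 0.0474), which is smaller than the 2-fold threshold. The means of the 3 5/6 Nx groups were within 12.3 to 12.6 CPM, below the 17.1 ± 2.36 CPM of the Sham mice.

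Dlx5 (ENSMUSG00000029755, chr6:6877805-6882085, minus strand), a factor that can switch on Runx2 during bone formation, was 2.17, 3.53, 1.63 and 3.00 CPM in 5/6 Nx-HPi-Lp aortas and 5.19, 3.16, 7.20 and 3.73 CPM in Sham aortas. Only 5/6 Nx-HPi-Lp replicate 2 reached the Sham range. The log2 fold change of -0.94 ± 0.351 missed both thresholds (adjusted p = 0.0539). It passed both without Sham replicate 2 (adjusted p = 0.0443) or without 5/6 Nx-HPi-Lp replicate 2 (adjusted p = 0.0367), and when the libraries were scaled by total counts alone (-1.07, adjusted p = 0.032). Msx2 (ENSMUSG00000021469, chr13:53466884-53473074, minus strand) was 0, 0.384, 0.588 and 0.587 CPM in 5/6 Nx-HPi-Lp aortas, where 0 counts in replicate 1 allow up to 0.192 CPM, and 0.993, 0.379, 1.52 and 1.10 CPM in Sham aortas. With a 95% interval from -3.04 to 0.33, the log2 fold change of -1.36 was too uncertain to give a direction (adjusted p = 0.175).

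Comp (ENSMUSG00000031849, chr8:70373558-70382066, plus strand), also known as thrombospondin 5, was higher in 5/6 Nx-HPi-Lp aortas than in Sham and in 5/6 Nx-LPi-Lp aortas. It was 64.1, 200.5, 69.7 and 152 CPM in 5/6 Nx-HPi-Lp aortas, 77.9, 77.9, 60.9 and 73.3 CPM in 5/6 Nx-HPi-Hp aortas, 52.5, 47.9, 42.5 and 38.6 CPM in Sham aortas and 35.2, 41.5, 26.8 and 33.3 CPM in 5/6 Nx-LPi-Lp aortas. All 8 5/6 Nx mice on 2% phosphorus exceeded all Sham and all 5/6 Nx-LPi-Lp mice. Replicates 2 and 4 of 5/6 Nx-HPi-Lp aortas stood above every other mouse, and replicates 1 and 3 lay among 5/6 Nx-HPi-Hp aortas.

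The log2 fold change of Comp in 5/6 Nx-HPi-Lp aortas was 1.37 ± 0.336 against Sham aortas (adjusted p = 0.00868) and 1.82 ± 0.358 against 5/6 Nx-LPi-Lp aortas (adjusted p = 0.00968, edgeR). The comparison with 5/6 Nx-HPi-Hp aortas did not pass (adjusted p = 0.18). In 5/6 Nx-HPi-Hp aortas, Comp differed from Sham aortas by 0.68 ± 0.137 on the log2 scale (adjusted p = 0.0102), a change under 2-fold that was therefore not called. The log2 difference of 5/6 Nx-HPi-Hp from 5/6 Nx-LPi-Lp aortas was 1.08 ± 0.163 (95% interval 0.72 to 1.44, adjusted p = 0.247). In that last comparison edgeR called 0 of 15850 genes (0.00% higher and 0.00% lower) and 0 of the 9 members tested. At an unadjusted p under 0.05 it held 1420 genes, of which Comp was the only member, and DESeq2 called 75 genes, with Comp again the only member.

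**Figure D2:**
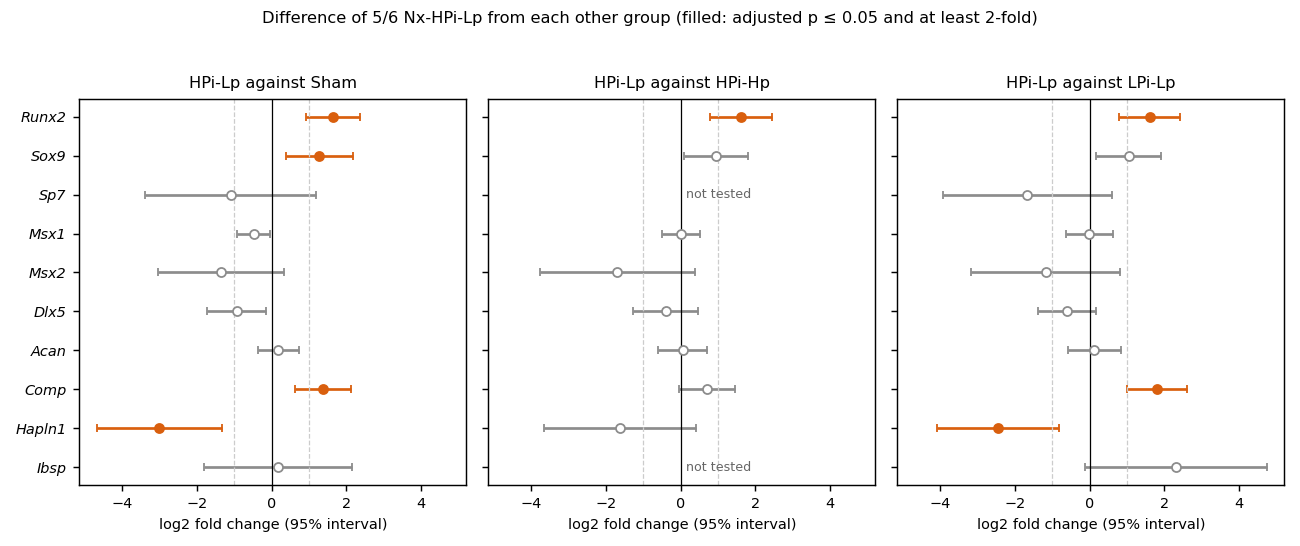
Log2 fold change of 5/6 Nx-HPi-Lp aortas against each other group (horizontal axis) for the 10 genes, with 95% intervals from edgeR and dashed lines at 2-fold. Filled points passed both thresholds, as Runx2 did in all 3 panels (1.64, 1.63 and 1.61), and Sp7 and Ibsp were not tested against 5/6 Nx-HPi-Hp aortas.

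Acan (ENSMUSG00000030607, chr7:79053483-79115099, plus strand), the major proteoglycan of cartilage, had overlapping levels in the 4 groups. It was 23.3, 57.4, 41.9 and 33.8 CPM in 5/6 Nx-HPi-Lp aortas and 33.9, 24.6, 42.0 and 33.6 CPM in Sham aortas. The group means were 33.5 ± 7.09 CPM in the Sham, 35.6 ± 13.9 in the 5/6 Nx-LPi-Lp, 36.9 ± 10.4 in the 5/6 Nx-HPi-Hp and 39.1 ± 14.4 CPM in 5/6 Nx-HPi-Lp aortas, so no neighbours in this order differed beyond their spread. Against the Sham mice the log2 fold change was 0.18 with a 95% interval from -0.37 to 0.73 (adjusted p = 0.588). This interval does not reach a 2-fold change in either direction, and Acan was not called in any comparison between groups.

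Hapln1 (ENSMUSG00000021613, chr13:89539796-89611652, plus strand), which locks aggrecan onto hyaluronan, was lower in 5/6 Nx-HPi-Lp aortas. It was 2.62, 0.658, 0.204 and 0.391 CPM in these mice and 3.79, 6.27, 13.1 and 5.79 CPM in Sham aortas, with no overlap. The 5/6 Nx-LPi-Lp aortas had 3.22, 6.98, 5.62 and 4.64 CPM, also without overlap. The 5/6 Nx-HPi-Hp aortas were divided, with 5.69 and 4.04 CPM in replicates 1 and 4 and 1.01 and 0.703 CPM in replicates 2 and 3. The log2 fold change was -3.01 ± 0.747 against Sham aortas (adjusted p = 0.00939) and -2.45 ± 0.725 against 5/6 Nx-LPi-Lp aortas (adjusted p = 0.0412), and against 5/6 Nx-HPi-Hp aortas it was not called (adjusted p = 0.257). The call against 5/6 Nx-LPi-Lp aortas was lost in 7 of the 8 fits that left out 1 library, and was kept without 5/6 Nx-HPi-Lp replicate 1 (adjusted p = 0.00289).

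Ibsp (ENSMUSG00000029306, chr5:104299171-104311469, plus strand), the bone sialoprotein gene, varied widely among 5/6 Nx-HPi-Lp aortas. It was 0, 4.10, 0.927 and 1.37 CPM there, that is 0, 224, 41 and 21 counts, where 0 counts allow up to 0.192 CPM. The Sham mice had 0.699, 1.22, 2.12 and 1.56 CPM, 5/6 Nx-HPi-Hp aortas 0.487, 0.0839, 0 and 0.207 CPM and 5/6 Nx-LPi-Lp aortas 0.109, 0.258, 0.666 and 0.284 CPM. Both of the latter groups lay wholly below Sham aortas, but the highest 5/6 Nx-LPi-Lp mouse (0.666 CPM) was close to the lowest Sham mouse (0.699 CPM). The counts were few, at 0 to 9 in 5/6 Nx-HPi-Hp, 2 to 9 in 5/6 Nx-LPi-Lp and 19 to 49 in Sham aortas. The 5/6 Nx-HPi-Lp aortas ran from no count to the highest level of the 16 libraries.

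Ibsp was the only one of the 10 genes called in 5/6 Nx-HPi-Hp aortas against Sham aortas, with a log2 fold change of -2.68 ± 0.706 (adjusted p = 0.0207), and in 5/6 Nx-LPi-Lp aortas against Sham aortas, with -2.11 ± 0.534 (adjusted p = 0.0159, edgeR). Operation and dietary protein differ together in the former, and operation and dietary phosphorus in the latter, so operation and diet cannot be told apart. Of all genes tested, 9.41% were called higher and 2.75% lower in the first of these comparisons, and 8.79% higher and 2.08% lower in the second. The first call was lost without Sham replicate 2 or 3 (adjusted p up to 0.0593), and both calls were lost when all 16 libraries shared 1 fit. The summed smooth muscle markers lay below every Sham mouse in all mice of these groups but 5/6 Nx-HPi-Hp replicate 4, whose adipocyte markers alone lay within the Sham range, and Schwann cell markers lay above every Sham mouse in all of them. Their part in the Ibsp difference was not tested. The 5/6 Nx-HPi-Lp aortas did not differ detectably from Sham aortas in Ibsp (log2 fold change 0.17, 95% interval -1.80 to 2.14, adjusted p = 0.893), and the sign of this value turned without 5/6 Nx-HPi-Lp replicate 2, which held most of the counts (-0.87), and without Sham replicate 1 (-0.072). Against 5/6 Nx-LPi-Lp aortas the log2 fold change was 2.31 (95% interval -0.13 to 4.74, adjusted p = 0.159). It was called without 5/6 Nx-HPi-Lp replicate 1 (adjusted p = 0.0355).

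The diets were compared among the 5/6 Nx groups. For protein, 5/6 Nx-HPi-Lp aortas were set against 5/6 Nx-HPi-Hp aortas, and 1 of the 8 genes tested, Runx2, was called higher and 0 lower, where 5.01% of 16198 genes were called higher and 3.11% lower. For phosphorus, they were set against 5/6 Nx-LPi-Lp aortas, and of the 10 genes Runx2 and Comp were higher and Hapln1 lower, where 7.90% of 16253 genes were called higher and 3.98% lower.

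Replicates 2 and 4 of 5/6 Nx-HPi-Lp aortas were the highest of the 16 libraries for Runx2 and Comp, and they also differed in tissue markers. The summed level of 7 airway and lung epithelium markers was 11.8, 75.0, 6.85 and 32.9 CPM in the 4 aortas of 5/6 Nx-HPi-Lp and 0.487 to 2.59 CPM in the other 12. The 8 smooth muscle markers summed to 5275, 2427, 4653 and 2326 CPM in 5/6 Nx-HPi-Lp aortas, against 21524 to 25635 CPM in Sham aortas, 7032 to 22666 CPM in the 5/6 Nx-HPi-Hp and 7945 to 18164 CPM in 5/6 Nx-LPi-Lp aortas. Their part in the results was not tested. Fits without these 2 libraries were a choice made after the data were seen. Because they hold the highest levels of Runx2 and Comp, leaving them out lowers the differences of these genes by construction. Such fits therefore cannot show what part the tissue markers have. Without the 2 libraries, the count of members called fell from 4 to 2 against Sham aortas (Runx2 with a log2 fold change of 1.15, adjusted p = 0.0308, and Dlx5, lower, with -1.38 and adjusted p = 0.0335), from 1 to 0 against 5/6 Nx-HPi-Hp aortas and from 3 to 0 against 5/6 Nx-LPi-Lp aortas. Comp then differed from Sham aortas by 0.53 on the log2 scale (adjusted p = 0.0206) and from 5/6 Nx-LPi-Lp aortas by 0.95 (adjusted p = 0.0386), both under 2-fold. Sox9 (0.91, adjusted p = 0.152) and Hapln1 (-2.53, adjusted p = 0.0699) then did not pass against Sham aortas. With 2 libraries left in the group, a fit is less able to call any gene. How far this alone lowered the counts of members called was not tested.

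Markers of other cells moved with the groups. Macrophage markers (6 genes) summed to 148 to 238 CPM in Sham aortas, 554 to 2011 in the 5/6 Nx-HPi-Lp, 239.8 to 410.4 in the 5/6 Nx-HPi-Hp and 149 to 264 CPM in 5/6 Nx-LPi-Lp aortas. Osteoclast markers (7 genes) summed to 25.9 to 34.9 CPM in the Sham, 123 to 366 in the 5/6 Nx-HPi-Lp, 38.6 to 169 in the 5/6 Nx-HPi-Hp and 48.9 to 100.5 CPM in 5/6 Nx-LPi-Lp aortas. Fibroblast markers (6 genes) summed to 1122 to 1860, 1568 to 3483, 881 to 1407 and 728 to 1359 CPM in the same order of groups, and sympathetic neuron markers (6 genes) to 2.25 to 4.16, 20.01 to 1234, 5.62 to 153 and 1.75 to 99.1 CPM. Adipocyte markers (5 genes) exceeded every Sham mouse in all 5/6 Nx mice but 5/6 Nx-HPi-Hp replicate 4, at 454 to 1168, 2855 to 5148, 987 to 6574 and 2479.7 to 6961 CPM, and Schwann cell markers (6 genes) in all of them, at 26.7 to 35.3, 60.4 to 564, 75.5 to 159.9 and 53.0 to 109 CPM. Brown adipocyte markers (4 genes) were 315 to 668, 579 to 1952, 724 to 2784 and 1372 to 4888 CPM, and heart muscle markers (5 genes) reached 80.4, 136, 882 and 7299 CPM. Between the Sham and 5/6 Nx-HPi-Lp aortas the adrenal cortex list (4.45 to 6.78 and 8.35 to 13.4 CPM) and the thymocyte list (6.44 to 40.3 and 0.136 to 2.45 CPM) were also apart, and the endothelial, tendon, skeletal muscle and kidney tubule lists overlapped. A list of 12 chondrocyte markers, without the 10 genes, summed to 12.5 to 18.3 CPM in the Sham and 21.5 to 52.8 CPM in 5/6 Nx-HPi-Lp aortas, to 23.4 to 48.2 CPM in the 5/6 Nx-HPi-Hp and to 16.7 to 26.1 CPM in 5/6 Nx-LPi-Lp aortas. Of the 12, 10 or 11 were detected in Sham and 9 or 10 in 5/6 Nx-HPi-Lp aortas. In both of these groups Col11a2 had the largest mean (10.1 and 14.8 CPM). Col2a1 and Epyc came next in 5/6 Nx-HPi-Lp aortas but were uneven, at 1.18 to 31.4 and 1.15 to 22.7 CPM. Snorc (1.27 and 0.222 CPM) and Ucma had lower means there than in Sham aortas. A list of 7 osteoblast markers summed to 8.12 to 9.59, 4.41 to 7.35, 2.73 to 9.12 and 4.36 to 11.7 CPM in the same order of groups, and 1 of the 7, Mepe, had 0 counts in every library of the 4 groups. Whether these cells carry the differences in the 10 genes was not tested.

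**Figure D3:**
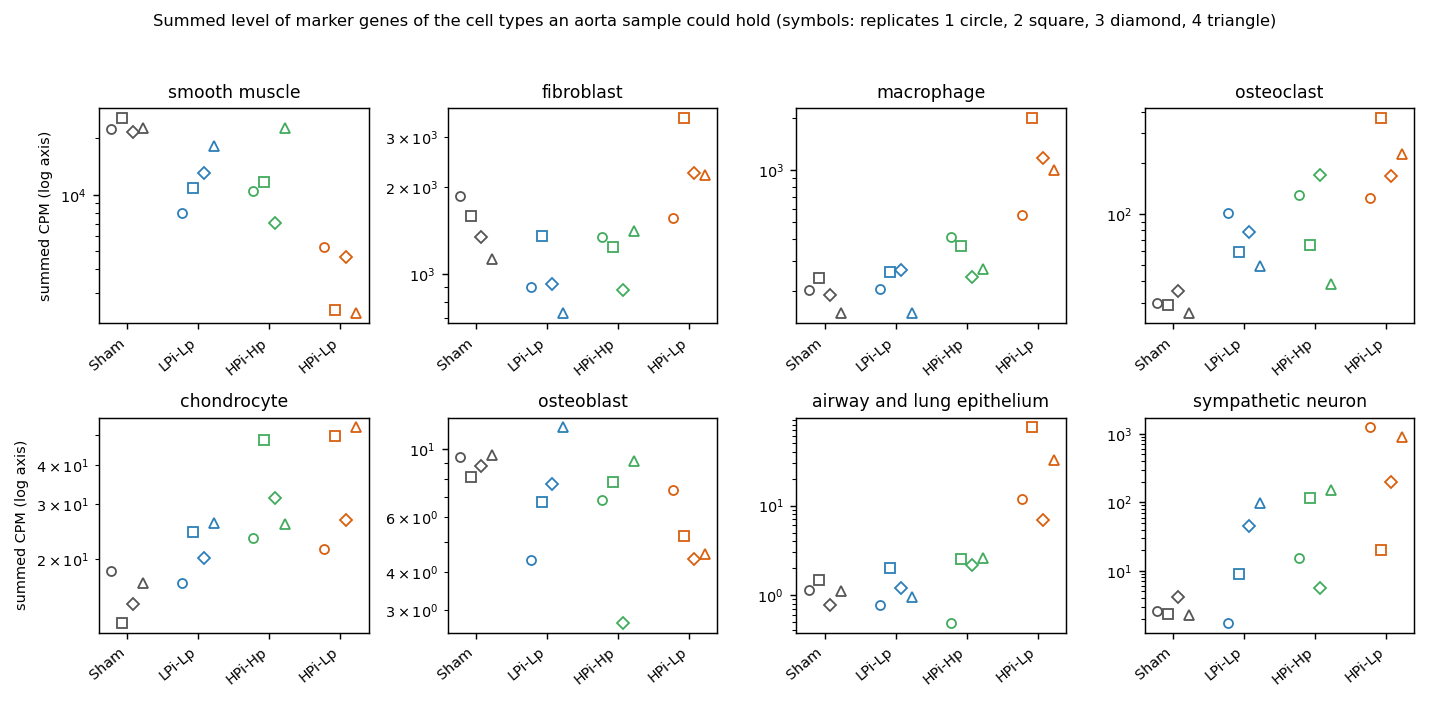
Summed TMM-scaled CPM of 8 marker lists (vertical log axes that differ between panels) in the 16 libraries, 1 symbol per mouse with its shape giving the replicate number. In 5/6 Nx-HPi-Lp aortas, smooth muscle sums lie between 2326 and 5275 CPM and macrophage sums between 554 and 2011 CPM, both apart from all other mice, and airway sums are highest in replicates 2 and 4.

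Genes that work with the 10 were read from lists of related genes. Over all genes tested, 15.0% were higher and 7.18% lower in 5/6 Nx-HPi-Lp than in Sham aortas, with a median log2 fold change of -0.0027. Against 5/6 Nx-HPi-Hp aortas these shares were 5.01% and 3.11%, and against 5/6 Nx-LPi-Lp aortas 7.90% and 3.98%. Among 13 tested transcription factors of bone and cartilage other than the 10, 3 were higher and 1 lower in 5/6 Nx-HPi-Lp aortas than in Sham aortas, with a median log2 fold change of 0.033. The 3 were Runx1, Runx3 and Cbfb, which are the relatives of Runx2 and their shared binding partner, and the lower one was Mef2c, a factor of muscle and cartilage. Runx1, a factor of blood and cartilage precursor cells, was 48.2 ± 29.9 CPM in 5/6 Nx-HPi-Lp aortas and 4.73 ± 0.902 CPM in Sham aortas, a log2 fold change of 3.30 ± 0.439 (adjusted p = 0.000327). Runx3, known from T cells and chondrocytes, was 4.53 ± 1.85 and 0.504 ± 0.294 CPM, a log2 fold change of 3.12 ± 0.465 (adjusted p = 0.000614). The differences of Runx1 and Runx3 from Sham aortas were larger than that of Runx2 (1.64) in their estimates, and the contrast between genes was not tested. Against 5/6 Nx-HPi-Hp aortas 2 of the 13 were higher and 1 lower, and against 5/6 Nx-LPi-Lp aortas 3 were higher and 0 lower.

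Of 18 other cartilage matrix genes tested against Sham aortas, 6 were higher and 2 lower in 5/6 Nx-HPi-Lp aortas. Their median log2 fold change was 0.45, against -0.0027 over all genes tested, of which 15.0% were higher and 7.18% lower. Col11a1, a minor fibrillar collagen of cartilage, was 18.1 ± 15.1 CPM against 0.158 ± 0.142 CPM, a log2 fold change of 6.81 ± 0.779 (adjusted p = 0.000145). Prg4, the lubricin gene of joint surfaces, was 263 ± 180 CPM against 5.86 ± 1.76 CPM, a log2 fold change of 5.44 ± 0.556 (adjusted p = 8.4e-05). Col2a1, the main collagen of cartilage, was also higher, with 9.90 ± 14.4 CPM against 0.727 ± 0.293 CPM (log2 fold change 3.71 ± 1.02, adjusted p = 0.0153), but its 4 values ran from 1.18 to 31.4 CPM. The lower genes were Snorc and Cilp2. Col10a1, the collagen of hypertrophic chondrocytes, had too few counts to be tested, with 1 to 53 counts in the 5/6 Nx-HPi-Lp and 2 to 7 in Sham aortas. Against 5/6 Nx-HPi-Hp aortas 3 of 16 tested were higher and 1 lower, and against 5/6 Nx-LPi-Lp aortas 5 of 18 were higher and 2 lower.

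Of 10 other bone matrix and mineralization genes tested against Sham aortas, 5 were higher and 1 lower. Their median log2 fold change was 0.93, against -0.0027 over all genes tested, of which 15.0% were higher and 7.18% lower. Spp1 (osteopontin), a phosphoprotein made by bone cells and by macrophages, was 757 ± 459 CPM in 5/6 Nx-HPi-Lp aortas and 1.30 ± 0.290 CPM in Sham aortas, a log2 fold change of 9.11 ± 0.579 (adjusted p = 1.4e-05). It belongs to the same family of secreted phosphoproteins as Ibsp, which was not called in this comparison. Col1a1, the main collagen of bone and of fibroblasts, was 4399.8 ± 3530.3 CPM against 817 ± 184 CPM (log2 fold change 2.37 ± 0.478, adjusted p = 0.00323). Alpl, the phosphatase that clears the mineral inhibitor pyrophosphate, was 39.1 ± 18.8 CPM against 16.7 ± 3.12 CPM (log2 fold change 1.19 ± 0.302, adjusted p = 0.0104), and it was not called against the 5/6 Nx-HPi-Hp (0.98, adjusted p = 0.0721) or 5/6 Nx-LPi-Lp aortas (0.68, adjusted p = 0.171). Col1a2 and Ifitm5 were the other genes that were higher and Phex, a peptidase of bone cells, was lower. Bglap (osteocalcin), which marks mature osteoblasts, had 0 counts in all 4 5/6 Nx-HPi-Lp mice, at most 1 in a Sham mouse, 0 to 10 in 5/6 Nx-HPi-Hp and 3 to 7 in 5/6 Nx-LPi-Lp aortas. Its close copy Bglap2 had up to 12 counts in 5/6 Nx-HPi-Lp aortas and 0 in every other group, and Bglap3 up to 153 there and at most 5 elsewhere. Reads can be split among these copies, so the level of each is uncertain. Against 5/6 Nx-HPi-Hp aortas 3 of 10 were higher and 0 lower, and against 5/6 Nx-LPi-Lp aortas 4 were higher and 1 lower.

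The thrombospondins related to Comp and the proteases that cleave aggrecan were the other groups read, beside the 15.0% of all genes called higher and 7.18% lower. Of the 4 other thrombospondins, Thbs1 (242 ± 69.2 CPM against 31.0 ± 13.2 CPM in Sham aortas, log2 fold change 2.93 ± 0.312, adjusted p = 0.000102) and Thbs4 (6.28 ± 4.88 against 0.439 ± 0.199 CPM, 3.79 ± 0.687, adjusted p = 0.00182) were higher and the other 2 were not called. Of 6 proteases, Mmp13 (17.0 ± 22.1 against 0.657 ± 0.331 CPM, log2 fold change 4.63 ± 1.03, adjusted p = 0.00536) and Adamts4 (12.7 ± 8.19 against 1.05 ± 0.853 CPM, 3.54 ± 0.767, adjusted p = 0.00474) were higher, and 0 were lower. The Mmp13 values of 5/6 Nx-HPi-Lp aortas ran from 0.958 to 49.7 CPM and overlapped with those of the Sham mice. Against 5/6 Nx-HPi-Hp aortas 1 of 4 thrombospondins and 3 of 6 proteases were higher, and against 5/6 Nx-LPi-Lp aortas 2 of 4 and 3 of 6, with 0 lower in each.

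**Figure D4:**
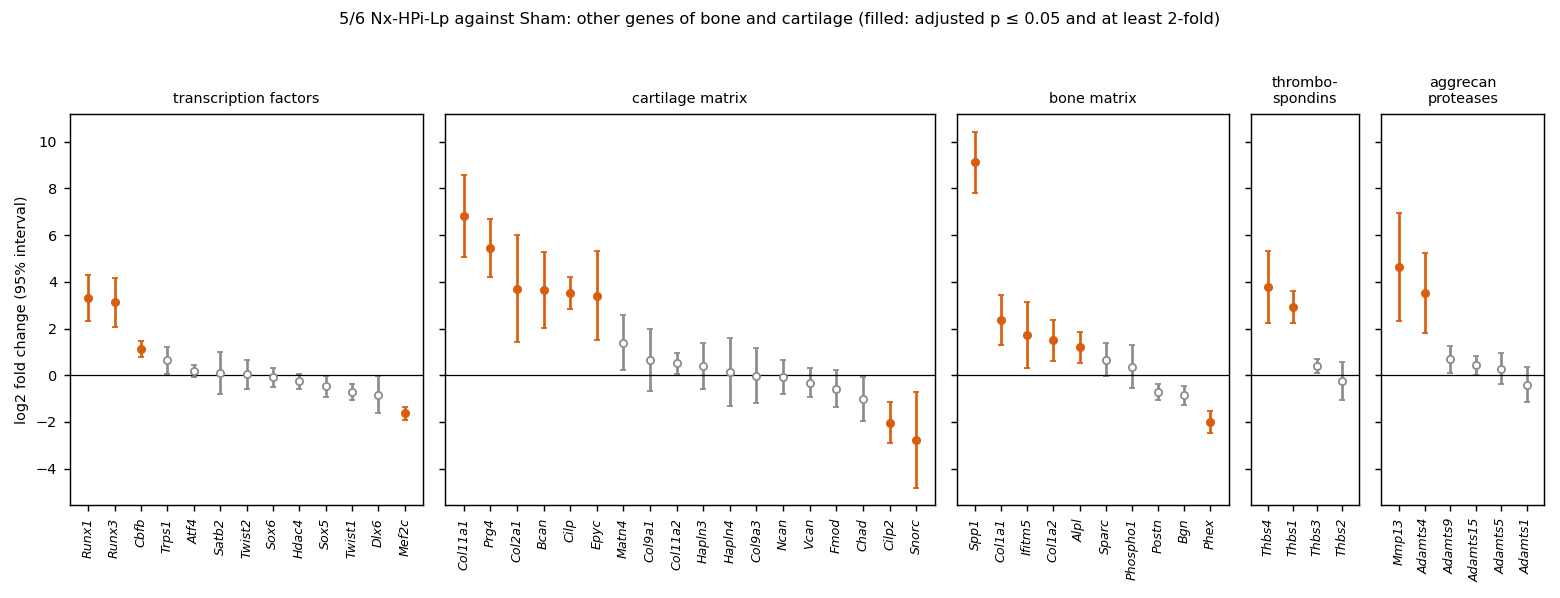
Log2 fold change (vertical axis, with 95% intervals from edgeR) of the tested genes of 5 lists in 5/6 Nx-HPi-Lp aortas against Sham aortas, ordered by size within each list. Filled points passed both thresholds, from Spp1 at 9.11 and Col11a1 at 6.81 down to Snorc at -2.76.

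The same lists were counted in the other comparisons with Sham aortas, in which operation and diet differ together. In 5/6 Nx-HPi-Hp aortas, where 9.41% of all genes tested were higher and 2.75% lower, 4 of 16 cartilage matrix genes were higher and 1 lower, and Col11a1 (log2 fold change 3.06, adjusted p = 0.0153) and Col2a1 (1.86, adjusted p = 0.0385) were among the 4. Of the transcription factors 0 of 13 were higher and 1 lower, and of the bone matrix genes 1 of 10 was higher and 0 lower. In 5/6 Nx-LPi-Lp aortas, where 8.79% of all genes tested were higher and 2.08% lower, 2 of 16 cartilage matrix genes were higher and 1 lower, 0 of 12 transcription factors were higher and 1 lower, and 0 of 10 bone matrix genes were called. For the thrombospondins and the proteases, 0 were higher and 1 of each list was lower in both groups. For 5/6 Nx-HPi-Hp against 5/6 Nx-LPi-Lp, 0 genes of the 5 lists were called by edgeR.

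The genes with the most similar pattern to each member were found by the Pearson correlation of log2(CPM + 1) over the 16 libraries, taken over the 15033 genes whose mean reached 1 CPM. The libraries share groups and tissue composition, so the values are descriptions. The pattern of Runx2 was most like that of Mmp2 (r = 0.945), Ctsk (0.942) and Scgb1a1 (0.937), which encode gelatinase A, the osteoclast protease cathepsin K and a secretory protein of the airway. Sox9 was most like Arrb2 (0.903), Cd200r1 (0.903) and Arl11 (0.882). Comp was most like Fndc1 (0.935), Slc9a9 (0.933) and Pf4 (0.920), and Hapln1 was most like Gm48898 (0.897), Gm26724 (0.897) and Hyal1 (0.897), the last a hyaluronidase. The nearest genes of Msx1 were Rpl37a (0.847), Rpl22 (0.832) and Rit1 (0.830), those of Dlx5 were Stk26 (0.825), Nmral1 (0.823) and Abhd8 (0.777), and those of Acan were Emp3 (0.820), Fkbp10 (0.792) and Gsc (0.785). Sp7, Msx2 and Ibsp had means under 1 CPM and were left out.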

How the data were processed

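The authors cleaned the reads of the 16 poly-A-selected libraries, aligned them to mm10 with HISAT2, counted them per gene with featureCounts 1.5.0-p3 (per the submitters' processing notes) and deposited whole-number counts without normalization. Strand and multi-mapping settings were not given in the sources used here. The authors also deposited FPKM, whose values match counts scaled by DESeq2 size factors and gene length, and were used here for levels between genes and in an alternative test. Within each group the counts of every pair of libraries differed by more than sampling noise.

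Groups came from the deposited labels. The count test was that of edgeR 4.0.16 under R 4.3.3 (filterByExpr, TMM, quasi-likelihood test, Benjamini-Hochberg adjustment over all genes tested) in fits of the 8 libraries compared. Standard errors are the log2 fold change divided by the square root of F. The depth per library, and the 3 counts that a count of 0 allows, set the precision and cover counting error only. P-values measure the spread between the mice of each group.

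All 10 members are named, with 2 called genes per list of related genes, chosen by the largest absolute log2 fold change against the Sham mice, and Col2a1, Col10a1, Spp1, Bglap and Alpl whatever their values. Cbfb, Mef2c, Snorc, Cilp2, Col1a2, Ifitm5 and Phex fall outside this rule and were named after their values were seen. The members, lists and tests were chosen with earlier results of these data known. Each choice was also changed in turn: the scaling (RLE or library totals), the tool (DESeq2 1.42.0), the values (limma 3.58.1 on deposited FPKM in log2 form with pseudocounts of 1 or 0.1, mean over 0.5), the filter (none, or a minimum of 10 counts per library), the fit (16 libraries together, or a replicate block), the counts (without mitochondrial genes, or thinned to 13659525 per library), the fold threshold (none) and the libraries (1 left out at a time). The tests were tested on simulated data. Figures were drawn with Python 3.11.15 and matplotlib 3.10.9. Promoter sequences and gene models came from RefSeq and GENCODE tables.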

Additional observations from a re-analysis of the deposited data

Results flagged for a closer look

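In 2 of the 40 sets of 4 mice examined (10 genes in 4 groups), 1 library stood apart from the other 3 by Dixon's test, where chance gives about 1 in 20. Msx1 in Sham replicate 2 was 13.6 CPM, below the next lowest Sham mouse at 17.9 CPM. Acan in 5/6 Nx-HPi-Hp replicate 3 was 21.5 CPM, below the next lowest mouse of its group at 40.5 CPM. Without Sham replicate 2, the log2 fold change of Msx1 in 5/6 Nx-HPi-Lp against Sham aortas was -0.60 (adjusted p = 0.0499, edgeR), under the 2-fold threshold.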

How the results depend on the processing

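The number of all genes called also changed with the setting. In 5/6 Nx-HPi-Lp against Sham aortas, edgeR called 3666 genes in all and DESeq2 4654. Against 5/6 Nx-HPi-Hp aortas they called 1315 and 2098, and against 5/6 Nx-LPi-Lp aortas 1931 and 2695. The changes in members called below were not set against changes over all genes. The comparison of the 5/6 Nx-HPi-Lp with the Sham mice gave 4 calls. It gave 1 (Comp) with limma on log2(FPKM + 1), 5 with total counts alone (Dlx5 added) and 2 without 5/6 Nx-HPi-Lp replicates 2 and 4. In both limma fits of this comparison Runx2 was left out for a low mean FPKM and not tested. Against 5/6 Nx-HPi-Hp aortas (1 call), it gave 2 with all 16 libraries (Runx2 and Ibsp), and 0 with either limma fit, in which Runx2 is left out for a low mean FPKM, and 0 without replicates 2 and 4. Against 5/6 Nx-LPi-Lp aortas (3 calls), it gave 4 with DESeq2 or all 16 libraries (Sox9 added), 1 with limma on log2(FPKM + 1) and 0 without replicates 2 and 4. The limma fits again left Runx2 out for a low mean FPKM. The Ibsp call in the 5/6 Nx-HPi-Hp and in 5/6 Nx-LPi-Lp aortas against the Sham mice became 0 with all 16 libraries in a single fit, and 0 under a minimum of 10 counts per library or in either limma fit, where Ibsp was not tested. With no fold threshold the first of these gave 3 (Msx1, Comp and Ibsp). For 5/6 Nx-HPi-Hp against 5/6 Nx-LPi-Lp, 0 calls became 1 (Comp) with DESeq2 or no count filter. Where no cause is named, the cause was not tested. Leaving out 1 library at a time gave 3 to 4 calls against the Sham, 0 to 2 against the 5/6 Nx-HPi-Hp and 2 to 5 against 5/6 Nx-LPi-Lp aortas for 5/6 Nx-HPi-Lp aortas, and 0 to 1 for the 5/6 Nx-HPi-Hp against the Sham mice. The genes above 1 FPKM (5, 5, 5 and 4) became 8 by mean CPM above 1 in all groups but 5/6 Nx-HPi-Lp, and 3 in 5/6 Nx-HPi-Lp if every library had to pass.

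Of the uncalled differences, that of Ibsp from the Sham mice (0.17) reversed to -0.026 and -0.45 in the limma fits with pseudocounts of 1 and 0.1, to -1.45 without replicates 2 and 4, and ranged from -0.87 to 0.58 when 1 library was left out. That of Acan (0.18) was -0.063 without replicates 2 and 4 and -0.038 to 0.37 with 1 library left out. Another 35 uncalled differences, not printed, changed sign in 59 of 630 values, all within 0.241 of 0.

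The replicate numbers were not treated as pairs in the main fits. Of 24 same-numbered pairs, 4 had correlated deviations above 0.1 (range -0.296 to 0.565). No differently numbered pairs were set beside them, so these values cannot show whether the numbers pair the mice. With the replicate block, the 5/6 Nx-HPi-Lp against 5/6 Nx-HPi-Hp count became 0, the 5/6 Nx-HPi-Hp against Sham count 0 and the 5/6 Nx-HPi-Hp against 5/6 Nx-LPi-Lp count 1, and Ibsp in 5/6 Nx-HPi-Lp aortas reversed to -0.59. The block also ended the call of Sox9 against the Sham mice (1.19, adjusted p = 0.0891) and that of Hapln1 against 5/6 Nx-LPi-Lp aortas (-3.05, adjusted p = 0.0611).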

Other observations

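Among the 7 members with a mean of at least 1 CPM, levels were compared as pairs over the 16 libraries (Pearson r of log2(CPM + 1)). The level of Runx2 went with that of Comp (r = 0.812) and Sox9 (0.745), and Comp with Sox9 (0.701). Hapln1 ran against these genes, with r of -0.675 for Comp, -0.648 for Sox9 and -0.599 for Runx2, and it ran with Dlx5 (0.691). The lowest correlation of Acan was with Hapln1 (-0.035) and its highest was with Sox9 (0.525). The 16 libraries share their groups and their tissue composition.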
